A study of Mus musculus with 8 samples.

Results

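The transcripts described here are those of the glucocorticoid receptor and 8 genes that it is known to control or that control its hormone. They are Nr3c1, Fkbp5, Tsc22d3, Sgk1, Hsd11b1, Errfi1, Cebpd, Cebpb and Zbtb16, and they were taken by gene symbol, 9 of the 16888 genes in the table. The table came from RNA sequencing of whole mouse pancreas. All 8 samples were from mice given repeated cerulein, a secretagogue peptide whose excess leads to acute pancreatitis. In 4 of them (CKO1 to CKO4) Anxa1 was knocked out in myeloid cells only, and the other 4 (WT1 to WT4) carried the Anxa1 flox/flox alleles. The sources used here do not give the Cre driver, strain, sex, age, number of injections or whether each sample was a separate animal, so p-values measure the spread between samples. No sample without cerulein and no sample treated with a glucocorticoid was analysed here.

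Glucocorticoids bind a receptor that waits in the cytoplasm in a complex with heat shock proteins and immunophilins. The bound receptor moves to the nucleus, where it switches on some genes at palindromic DNA elements and holds down inflammatory genes driven by NF-kB and AP-1. Annexin A1, the protein removed from myeloid cells in the CKO mice, is a classic effector of this hormone in leukocytes. The question asked of these genes was how their levels compare between pancreatitis with and without myeloid annexin A1.

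Promoter sequence was read for the members in the RefSeq table of GRCm38.p6, the same assembly as the mm10 build named in the submitters' processing notes. Windows were used for 6 of the 9 genes (Sgk1, Tsc22d3, Fkbp5, Errfi1, Hsd11b1 and Cebpb), 14 in all, and the 250 bases before each start were searched on both strands. The full palindrome of the textbook glucocorticoid response element, AGAACA and TGTTCT with any 3 bases between them, stood in 1 of these 14 windows, at a start of Sgk1, and in 3 of all 32851 windows (0.00913%). Windows are shown for Sgk1, which holds that palindrome, for Cebpb, the gene with the largest difference between the groups, and for Errfi1, which holds the full cAMP response element. Capitals mark the palindrome in Sgk1, each TGACG or its reverse complement in Cebpb, and TGACGTCA in Errfi1.
Sgk1, chr10:21993640-21993889, plus strand: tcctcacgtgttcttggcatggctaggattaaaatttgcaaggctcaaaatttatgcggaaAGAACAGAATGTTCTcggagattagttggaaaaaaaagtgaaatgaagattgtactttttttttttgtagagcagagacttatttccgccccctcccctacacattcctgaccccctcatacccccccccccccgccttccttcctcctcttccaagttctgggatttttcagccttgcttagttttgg
Cebpb, chr2:167688665-167688914, plus strand: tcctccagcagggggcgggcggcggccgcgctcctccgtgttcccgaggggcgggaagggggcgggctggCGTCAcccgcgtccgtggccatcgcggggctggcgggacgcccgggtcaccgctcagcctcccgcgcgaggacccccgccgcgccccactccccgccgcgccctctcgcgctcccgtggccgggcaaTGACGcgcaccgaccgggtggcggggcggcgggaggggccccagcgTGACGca
Errfi1, chr4:150854820-150855069, plus strand: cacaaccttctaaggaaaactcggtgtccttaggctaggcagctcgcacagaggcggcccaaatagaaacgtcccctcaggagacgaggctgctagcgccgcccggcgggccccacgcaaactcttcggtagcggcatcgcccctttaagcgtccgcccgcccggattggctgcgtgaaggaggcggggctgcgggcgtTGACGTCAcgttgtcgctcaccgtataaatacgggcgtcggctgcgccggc

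In the Sgk1 window the palindrome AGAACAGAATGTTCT began 189 bases before the RefSeq start. In the Cebpb window the matches began 180, 53 and 7 bases before the start. A TGACG on either strand stood in 4 of the 14 windows, of Cebpb, Errfi1, Sgk1 and Tsc22d3, and in 17.8% of all windows. The TGACGTCA of Errfi1, which contains TGACG on each strand, began 51 bases before the start, and 1.55% of windows held it. The single arm AGAACA stood in windows of Sgk1 and Tsc22d3 and in 16.1% of all windows. The C/EBP palindrome TTGCGCAA stood in 0 of the 14 windows and in 0.164% of all windows. A match is a run of letters, not a measured binding site.

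Levels are given as RPKM, the reads of a gene scaled to its length and to the size of the library, so they can be set side by side between genes. The library totals recovered from these values ran from 30469002 to 34359802 reads, and 3 reads on a gene of 1 kb came to 0.0873 to 0.0985 RPKM. Acinar enzyme transcripts took 50.79% to 58.56% of the reads of a library, the defining transcripts of exocrine pancreas. Anxa1 itself was at 4.84, 4.76, 5.21 and 7.13 RPKM in CKO1 to CKO4 and at 8.44, 14.7, 7.05 and 9.74 RPKM in WT1 to WT4, so that CKO4 reached just above WT3. WT2 stood apart in its adipocyte markers, whose sum was 180.7 RPKM there against 24.1 to 44.3 RPKM in the other 7 libraries. It also had the highest sums of duct, macrophage, B cell, T cell, fibroblast, endothelial, smooth muscle and mast cell markers. The B cell sum was 5.30 RPKM in WT2 and 1.83 RPKM in WT3. The highest sums of acinar, islet and neutrophil markers were in CKO1, CKO3 and WT1. In whole tissue, fewer cells of a type and less RNA per cell cannot be told apart.

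By mean level over the 8 libraries the order was Cebpb (33.4 RPKM), Errfi1 (18.4 RPKM), Cebpd (9.24 RPKM), Fkbp5 (7.66 RPKM), Tsc22d3 (2.34 RPKM), Nr3c1 (2.23 RPKM), Hsd11b1 (1.61 RPKM), Sgk1 (1.45 RPKM) and Zbtb16 (0.659 RPKM). Some neighbours in this order were not apart beyond their spread. Cebpd was above Fkbp5 in 5 of the 8 libraries, Tsc22d3 above Nr3c1 in 5 and Hsd11b1 above Sgk1 in 5. Errfi1 exceeded Cebpd, Fkbp5 exceeded Tsc22d3, and Sgk1 exceeded Zbtb16 in all 8. The receptor was thus a transcript of modest level, at percentile 61.9 of all genes in the table, against 94.6 for Cebpb.

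**Figure D1:**
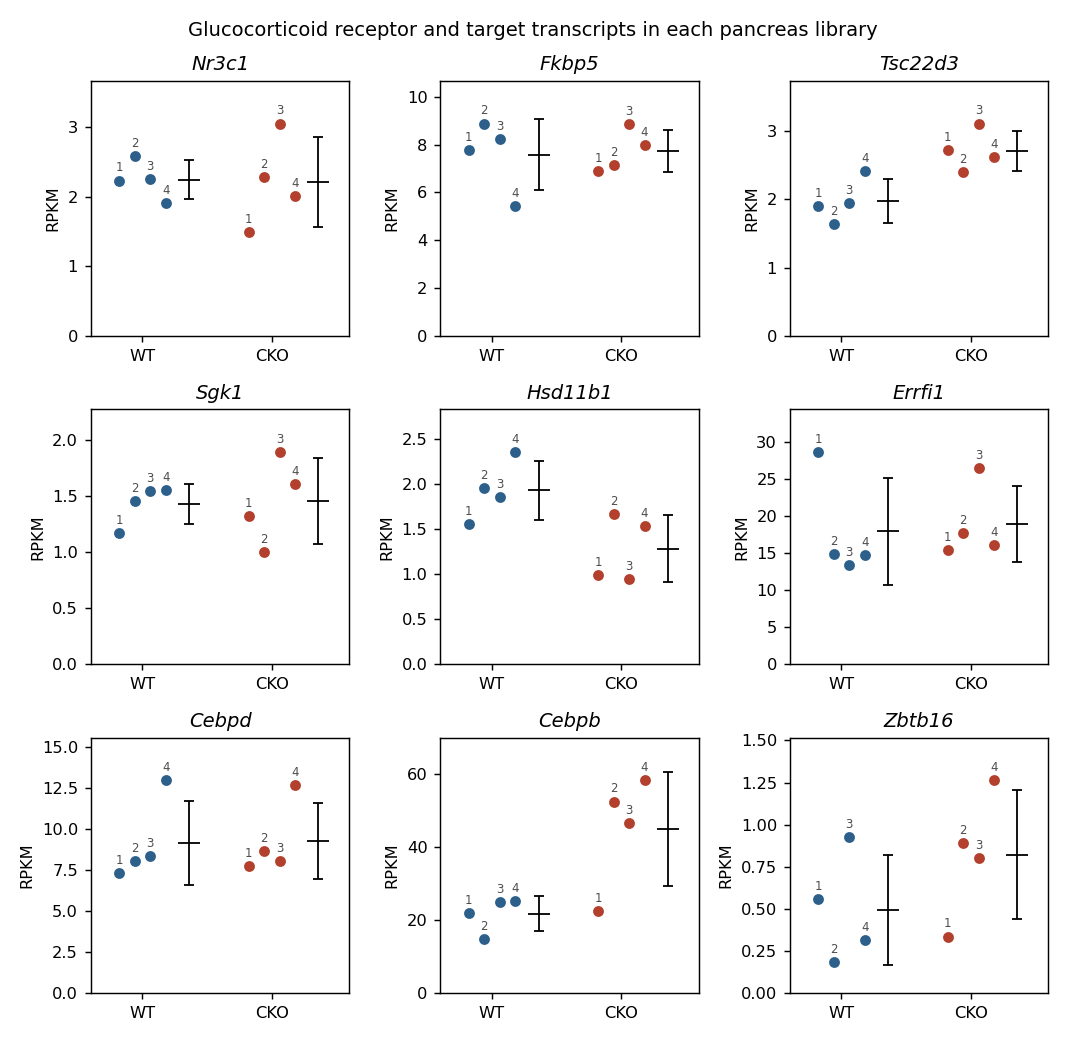
RPKM of each of the 9 genes (vertical axes, each from 0) in the 4 WT libraries (blue) and the 4 CKO libraries (red), with small digits for the replicate number and the group mean with its SD as a black bar. The groups overlap in every panel, with Cebpb at 46.7 RPKM or more in CKO2 to CKO4 but 22.5 RPKM in CKO1.

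None of the 9 genes differed between the groups past the threshold, an adjusted p of 0.05 over all tested genes. A gene entered the test when 4 or more libraries had 1 RPKM or more, which 8 of the 9 met. Of these 8, 0 passed in limma, while 3 (Cebpb, Tsc22d3 and Hsd11b1) had an unadjusted p under 0.05. Over all 8513 tested genes 7.17% passed, 1.42% higher and 5.74% lower in CKO, and 27.3% had an unadjusted p under 0.05. In 0 of the 8 were the groups free of overlap, against 18.7% of all tested genes (2.46% with CKO above WT and 16.2% below). The median log2 change of the 8 was 0.03, beside -0.12 for all tested genes. Log2 changes are CKO minus WT on the scale of log2(RPKM + 1), and the added 1 pulls the change of a gene near 1 RPKM towards 0.

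Nr3c1, on chromosome 18, encodes the receptor. It was at 1.49, 2.28, 3.05 and 2.01 RPKM in CKO1 to CKO4 and at 2.23, 2.59, 2.25 and 1.91 RPKM in WT1 to WT4, from 447 to 911 reads. The highest and the lowest library were both CKO, and the 4 WT libraries lay between them. The means were 2.21 ± 0.65 and 2.25 ± 0.277 RPKM (SD, n = 4 each). The log2 change was -0.03 (SE 0.15, 95% interval -0.35 to 0.28, adjusted p = 0.904), and its sign turned with median centring of the libraries (0.069) and with totals that left out the acinar enzymes (0.0056).

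The genes whose pattern over the 8 libraries was most like that of Nr3c1, after each group mean was subtracted, were Fam102b (Pearson r = 0.99), Wdr82 (r = 0.98) and Esrra (r = 0.98), each with a Spearman rho of 0.98. These are the highest of 8512 values, of which 209 were above 0.9, so they are given as a description with no p.

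Hsd11b1 (chr1:193221634-193264075, minus strand, mm10) encodes the enzyme that regenerates active glucocorticoid inside cells. It was at 0.987, 1.66, 0.949 and 1.53 RPKM in CKO1 to CKO4 and at 1.56, 1.95, 1.85 and 2.35 RPKM in WT1 to WT4. Only CKO2 reached into the WT range, just above WT1. The mean was 1.28 ± 0.367 against 1.93 ± 0.328 RPKM, a ratio of 0.665. The log2 change was -0.37 (SE 0.14, 95% interval -0.66 to -0.07, adjusted p = 0.106). It was -0.58 when 0.1 was added in place of 1 and -0.62 with limma-voom on recovered reads (adjusted p = 0.111 and 0.134). With median centring it was -0.26 and with totals that left out the acinar enzymes -0.33 (adjusted p = 0.283 and 0.151). Only 47 to 104 reads stood behind each value, a counting error of 14.6% to 9.81%, so a part of the spread is counting.

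Hsd11b1 is also a gene of fat and of fibroblasts. The sum of the 8 adipocyte markers was 24.6 to 44.3 RPKM in CKO and 24.1 to 180.7 RPKM in WT, where 3 of the 8 were tested and 0 passed, and Plin1, Lep and Retn were at 0 in some libraries. WT4, the library with the highest Hsd11b1, had the lowest adipocyte sum, 24.1 RPKM, while WT2, the second in Hsd11b1, had the highest. The sum of the 6 fibroblast markers was 64.4 to 102.2 RPKM in CKO and 54.8 to 121.1 RPKM in WT (6 tested, 0 passed), again with WT4 the lowest and WT2 the highest. The part of either cell type in the Hsd11b1 level was not tested. Of the other genes of hormone supply, 2 were tested and 0 passed, beside 7.17% of all tested genes, with a median log2 change of -0.24. H6pd, which feeds cofactor to the Hsd11b1 enzyme, was at 5.32 ± 0.739 against 6.33 ± 1.82 RPKM (adjusted p = 0.528). Abcb1b, an export pump for steroids and drugs, was at 2.10 ± 0.325 against 2.88 ± 0.987 RPKM (adjusted p = 0.301). The opposing enzyme gene Hsd11b2, which inactivates the hormone, stayed at or below 0.238 RPKM in every library. Cyp11a1, of the same list, was too low to enter the test and is named outside the rule. It was at 0.0932 RPKM or less in CKO and at 0.110 to 0.338 RPKM in WT. With a filter at 0.1 RPKM it did not pass in limma (log2 change -0.23, adjusted p = 0.0616).

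Fkbp5 (chr17:28399094-28517527, minus strand) encodes an immunophilin of the receptor complex that lowers hormone binding, and it is among the most widely used readouts of receptor activity. It was at 6.90, 7.16, 8.86 and 8.0 RPKM in CKO1 to CKO4 and at 7.78, 8.88, 8.25 and 5.44 RPKM in WT1 to WT4. WT4 was the lowest library and WT2 the highest, so the WT group spanned all CKO values. The means were 7.73 ± 0.884 and 7.59 ± 1.5 RPKM. The log2 change was 0.04 (SE 0.15, 95% interval -0.28 to 0.35, adjusted p = 0.897).

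Tsc22d3 (chrX:140539528-140600659, minus strand) encodes GILZ, a leucine zipper protein that binds NF-kB and AP-1 and carries part of the anti-inflammatory action of the hormone. It was at 2.72, 2.40, 3.11 and 2.61 RPKM in CKO1 to CKO4 and at 1.90, 1.64, 1.94 and 2.41 RPKM in WT1 to WT4. The groups met at a single point, where WT4 (296 reads) lay just above CKO2 (333 reads in a larger library). The mean was 2.71 ± 0.296 against 1.97 ± 0.321 RPKM, a ratio of 1.37. The log2 change was 0.32 (SE 0.12, 95% interval 0.07 to 0.58), with an adjusted p of 0.103 that ran from 0.0636 to 0.245 over the 16 other settings and never passed.

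Sgk1 (chr10:21882184-21999903, plus strand) encodes a kinase of ion transport and cell survival that the receptor induces quickly, and it is the member with the palindrome printed above. It was at 1.32, 1.00, 1.90 and 1.61 RPKM in CKO1 to CKO4 and at 1.17, 1.46, 1.55 and 1.55 RPKM in WT1 to WT4. The WT values all lay inside the CKO range, and the log2 change was 0.00 (SE 0.13, 95% interval -0.27 to 0.28, adjusted p = 0.987). Of the genes for substrates and targets of the kinase, 4 of 7 were tested and 0 passed (median log2 change -0.05). Ndrg1, whose protein the kinase phosphorylates, was at 410 ± 127 against 383 ± 71.9 RPKM (adjusted p = 0.871). Foxo3 (-0.11, adjusted p = 0.682) and Gsk3b (-0.04, adjusted p = 0.862), both also known substrates, had log2 changes near 0.

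Errfi1 (chr4:150853919-150868892, plus strand) encodes MIG6, which binds receptors of the EGF family and shuts off their kinase. It was at 15.4, 17.7, 26.4 and 16.1 RPKM in CKO1 to CKO4 and at 28.6, 14.9, 13.4 and 14.7 RPKM in WT1 to WT4. WT1 and CKO3 stood far above the other 6 libraries, 1 in each group. The means were 18.9 ± 5.11 and 17.9 ± 7.17 RPKM, and the log2 change was 0.11 (SE 0.23, 95% interval -0.40 to 0.61, adjusted p = 0.802). Without WT1 it was 0.34 and still short of the threshold (adjusted p = 0.272). Of the 4 receptors it can bind, 3 were tested and 0 passed. Erbb3 was at 14.1 ± 4.51 RPKM in CKO and 8.96 ± 2.31 RPKM in WT, with an adjusted p of 0.143 that dropped to 0.02 when CKO1 was left out. Egfr was at 17.6 ± 6.23 against 17.3 ± 3.23 RPKM, and Erbb2 at 6.04 ± 1.22 against 6.34 ± 1.01 RPKM. Erbb4 did not exceed 0.00903 RPKM in any library.

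Cebpb (chr2:167688915-167690418, plus strand) and Cebpd (chr16:15887286-15891031, plus strand) encode C/EBP transcription factors, which glucocorticoids, cytokines and cell stress all induce and which drive acute phase and myeloid genes. Cebpb was at 22.5, 52.6, 46.7 and 58.4 RPKM in CKO1 to CKO4 and at 22.0, 14.8, 24.9 and 25.2 RPKM in WT1 to WT4. CKO2, CKO3 and CKO4 stood well above every WT library, while CKO1 lay among the WT values. The mean was 45.0 ± 15.8 against 21.7 ± 4.83 RPKM, a ratio of 2.07, the largest among the members. The log2 change was 0.96 (SE 0.27, 95% interval 0.36 to 1.56), and the adjusted p of 0.0574 fell short of the threshold.

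The call for Cebpb depended on CKO1 and on the scaling. Without CKO1 the log2 change was 1.26 (adjusted p = 0.00133), with median centring 1.07 (0.0411), and with totals that left out the acinar enzymes 1.02 (0.0413). In the other 13 settings it did not pass, with an adjusted p of up to 0.135. The difference is far larger than counting error, since 722 to 2798 reads stood behind each value. CKO1 had the lowest sum of macrophage markers (158.0 RPKM), whose part in its Cebpb level was not tested. Its share of acinar enzyme reads was the largest (58.56%), followed by that of CKO4 (58.07%), the library with the highest Cebpb. The part of this share in the Cebpb levels was not tested. An exon of Tmem189 overlaps Cebpb on the opposite strand. The sources used here do not say whether the counting used strand, so reads of the 2 genes may not be told apart.

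Cebpd was at 7.76, 8.65, 8.06 and 12.7 RPKM in CKO1 to CKO4 and at 7.34, 8.05, 8.36 and 13.0 RPKM in WT1 to WT4. CKO4 and WT4 stood above the other 6 libraries, and the rest lay close together. The means were 9.30 ± 2.31 and 9.18 ± 2.57 RPKM, with a log2 change of 0.02 (SE 0.18, 95% interval -0.38 to 0.42, adjusted p = 0.95). An exon of Spidr overlaps it on the opposite strand, as Tmem189 does Cebpb.

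Both C/EBP genes are also expressed in myeloid cells. The sum of the 7 monocyte and macrophage markers was 158.0 to 338.5 RPKM in CKO and 300.4 to 573.2 RPKM in WT, and 2 of 7 tested markers (Ccr2 and Tyrobp) fell. Of all tested genes 5.74% passed lower in CKO. The sum of the 6 neutrophil markers was 15.2 to 51.9 RPKM in CKO and 40.3 to 86.4 RPKM in WT, where 0 of 6 passed. Both sums reached lower values in CKO, the group with the higher mean of Cebpb, but their ranges overlap between the groups. The part of these cells in the levels of both genes was not tested.

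Zbtb16 (chr9:48654297-48836222, minus strand) encodes PLZF, a zinc finger repressor with a strong response to glucocorticoid in many cell types. It was at 0.335, 0.891, 0.80 and 1.26 RPKM in CKO1 to CKO4 and at 0.555, 0.182, 0.926 and 0.316 RPKM in WT1 to WT4. It is the member that failed the filter, since only CKO4 reached 1 RPKM, although 48 to 327 reads stood behind each value. The libraries differed by up to 6.93-fold, more than for any other member, and the groups overlapped widely. The means were 0.822 ± 0.381 and 0.495 ± 0.326 RPKM. With a filter at 0.1 RPKM the log2 change was 0.29 (95% interval -0.09 to 0.67, adjusted p = 0.329).

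**Figure D2:**
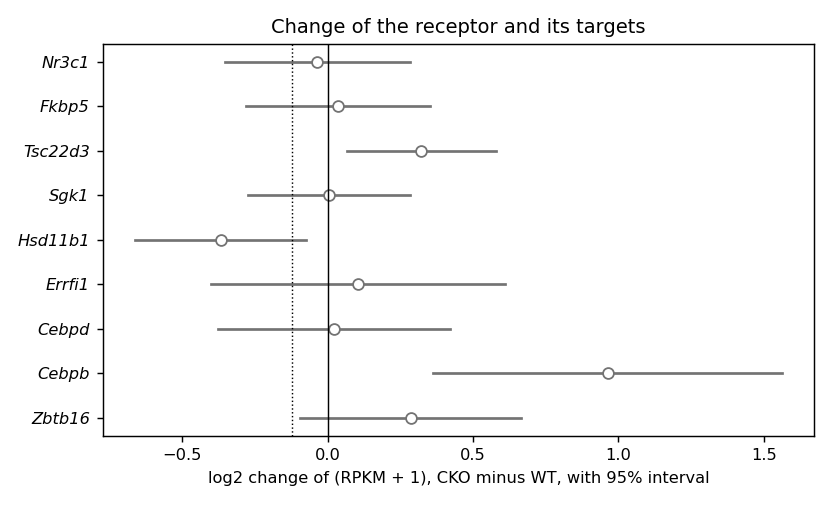
Log2 change of RPKM + 1, CKO minus WT (horizontal axis), for each member, with the 95% interval from limma as a line. Zbtb16 is from the fit with a filter at 0.1 RPKM. Open circles mark changes short of the threshold, the solid vertical line is 0, and the dotted line is the median of all tested genes (-0.12). The interval lies above 0 for Cebpb and Tsc22d3 and below 0 for Hsd11b1 before adjustment, and it spans 0 for the other 6.

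No library was high for the members as a set. CKO3 held the highest level of 3 of them (Nr3c1, Tsc22d3 and Sgk1) and the lowest of Hsd11b1. WT2 held the lowest level of 3 (Tsc22d3, Cebpb and Zbtb16) and the highest of Fkbp5. The coefficient of variation within a group ran from 10.9% (Tsc22d3 in CKO) to 65.9% (Zbtb16 in WT), and for Cebpb it was 35% in CKO and 22.2% in WT. For Fkbp5, with 644 to 1174 reads a library, it was 11.4% in CKO and 19.8% in WT against a counting error of 2.92% to 3.94%.

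Among relatives of the members, 8 of 15 genes were tested and 0 passed, with a median log2 change of 0.04. Cebpa, the C/EBP factor of differentiated cells, was at 23.2, 37.9, 33.9 and 36.2 RPKM in CKO1 to CKO4 and at 49.1, 35.5, 54.4 and 48.7 RPKM in WT1 to WT4. WT2 lay among the CKO libraries, and the log2 change was -0.51 (SE 0.17, adjusted p = 0.0799). The GILZ relatives Tsc22d1 (0.26, adjusted p = 0.313) and Tsc22d4 (-0.18, adjusted p = 0.45) did not pass. The mineralocorticoid receptor gene Nr3c2, whose protein also binds glucocorticoid, stayed at or below 0.116 RPKM.

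The ratio of Cebpb to Cebpa, which does not change with the scaling of a library, was chosen after its values were seen and is a description with no test. It was 0.967, 1.39, 1.38 and 1.61 in CKO1 to CKO4 and 0.448, 0.417, 0.457 and 0.517 in WT1 to WT4. Here CKO1 too was above every WT library, although it was the lowest of the CKO group. The mean ratio was 1.34 ± 0.268 in CKO and 0.46 ± 0.0418 in WT (SD, n = 4 each). The ratios to the other 2 C/EBP genes computed did overlap between the groups, with CKO1 again the lowest CKO library. Cebpb over Cebpd was 2.90 in CKO1 and 4.59 to 6.07 in the other CKO libraries, against 1.84 to 3.00 in WT. Cebpb over Cebpg was 1.48 in CKO1 and 2.33 to 3.93 in the others, against 1.21 to 1.62 in WT.

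**Figure D3:**
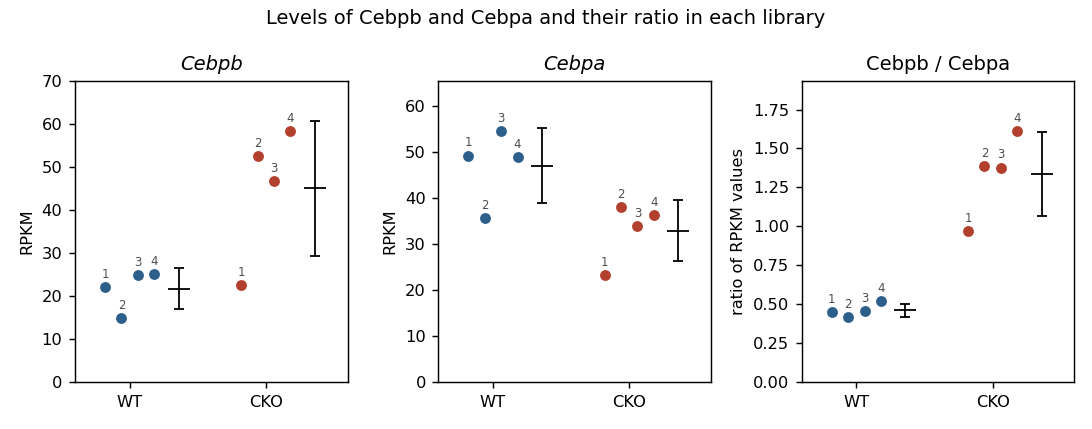
RPKM of Cebpb and of Cebpa and the ratio of the 2 RPKM values (vertical axes, each from 0) in the 4 WT (blue) and 4 CKO libraries (red), with replicate digits and the group mean with its SD as a black bar. The ratio lies between 0.417 and 0.517 in WT and between 0.967 and 1.61 in CKO, while each gene alone overlaps between the groups, as do the ratios of Cebpb to Cebpd and to Cebpg, which are not drawn.

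Genes of the chaperone complex and of the coregulators through which the receptor works were counted next. Of 24 listed, 23 were tested, 0 rose and 1 fell, and the list had a median log2 change of 0.02. That share, 4.35%, is below the 7.17% of all tested genes, so the list as a whole was not called more often than other genes. The gene that fell was Ppid, which encodes cyclophilin 40, an immunophilin that competes with FKBP5 for the same place on HSP90. It was at 3.17, 3.17, 3.14 and 2.71 RPKM in CKO1 to CKO4 and at 4.50, 3.97, 4.53 and 4.42 RPKM in WT1 to WT4. The groups did not overlap, as in the 16.2% of all tested genes with CKO below WT, and the log2 change was -0.40 (SE 0.11, adjusted p = 0.0417). It missed the threshold with median centring and when any library other than CKO1 was left out, where the adjusted p reached 0.118.

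The cochaperone Ptges3, known as p23, had a log2 change of -0.42 (adjusted p = 0.0722, but 0.0424 without CKO3), and Hspa4 one of -0.34 (adjusted p = 0.0867). Fkbp4, the partner that acts against FKBP5 in the same complex and was named outside the rule, was at 22.9 ± 2.84 against 25.1 ± 0.609 RPKM (adjusted p = 0.438). Hsp90ab1, the main chaperone of the complex and likewise named outside the rule, was at 554 ± 83.3 against 584 ± 32.6 RPKM (adjusted p = 0.672). The largest log2 changes of the list, of Hspa1a (1.18) and Hspa1b (1.36), were upward and are also named outside the rule. Hspa1a was at 2.24, 22.3, 25.7 and 34.6 RPKM in CKO1 to CKO4 and at 3.76 to 13.7 RPKM in WT. Hspa1b was at 3.39, 32.6, 35.4 and 45.5 RPKM in CKO1 to CKO4 and at 4.96 to 15.4 RPKM in WT. Neither passed (adjusted p = 0.389 and 0.313 in limma). Of the 23 tested genes 12 had a log2 change above 0 and 11 below.

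Other genes that glucocorticoids induce in many tissues formed the next list. Of 29 listed, 19 were tested, 6 rose and 2 fell, a share of 42.1% against the 7.17% of all tested genes, while the median log2 change was 0.08. The list was chosen with earlier results of these data known, so this share is a description and no test of the list. One of the 2 that fell is Anxa1, the gene targeted in the CKO mice. Without it 7 of 18 were called (38.9%), with a median log2 change of 0.16. Dusp1, a phosphatase that switches off MAP kinases, rose 2.81-fold, from 19.5 to 26.7 RPKM in WT to 43.8 to 83.7 RPKM in CKO (log2 change 1.42, adjusted p = 0.0011). Cdkn1a, the cell cycle inhibitor p21, was at 125, 198, 196 and 167 RPKM in CKO1 to CKO4 and at 99.4, 47.2, 81.4 and 87.6 RPKM in WT1 to WT4 (log2 change 1.14, SE 0.22, adjusted p = 0.0152). Every CKO library lay above every WT library for both, as for 2.46% of all tested genes. In this list that held for 7 of the 19 tested genes, and 2 had CKO below WT without overlap, again a description. Among the 7 was Bcl6, named outside the rule, which did not pass (adjusted p = 0.0736).

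Txnip, which binds thioredoxin and restrains glucose uptake, was at 150, 103, 139 and 172 RPKM in CKO1 to CKO4 and at 78.6, 80.6, 66.8 and 72.8 RPKM in WT1 to WT4. It rose with no overlap between the groups (log2 change 0.89, SE 0.15, adjusted p = 0.0057). Dusp1, Cdkn1a and Txnip passed in all 16 other settings as well.

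The other 5 calls in the list are named because they passed, outside the rule. Zfp36, which destabilises cytokine mRNAs, rose 1.71-fold (adjusted p = 0.0246), the insulin signalling adaptor Irs2 1.91-fold (adjusted p = 0.0262) and the clock gene Per1 1.84-fold (adjusted p = 0.0347). Angptl4, an inhibitor of lipoprotein lipase, fell to 0.546 times its WT mean (adjusted p = 0.033), and Anxa1, the targeted gene, to 0.55 times (adjusted p = 0.0417). Of the 16 other settings Zfp36 and Irs2 passed in 12 each, Per1 in 10, Angptl4 in 9 and Anxa1 in only 6. Where they missed, the adjusted p reached 0.0679 for Zfp36, 0.0816 for Irs2, 0.113 for Per1, 0.093 for Angptl4 and 0.108 for Anxa1. The count of 6 higher and 2 lower became 3 and 0 without WT1, 3 and 0 without WT4, 4 and 0 without WT2, and 5 and 0 without CKO2. With median centring it was 8 and 0.

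Klf9, a direct receptor target in many cells that was named outside the rule, was at 9.17, 13.7, 17.2 and 14.8 RPKM in CKO1 to CKO4 and at 8.31, 6.59, 10.7 and 8.54 RPKM in WT1 to WT4. CKO1 lay below WT3, and the log2 change of 0.61 did not pass (adjusted p = 0.0594). It passed without CKO1 (0.0125), with median centring (0.0259) and with totals that left out the acinar enzymes (0.0304). The metallothionein genes Mt1 (1459 ± 207 against 1655 ± 266 RPKM, adjusted p = 0.409) and Mt2 (1523 ± 459 against 1504 ± 357 RPKM, adjusted p = 0.993), which the hormone and metals both induce, overlapped between the groups. Ddit4, an inhibitor of mTORC1, lay below every WT library in all CKO libraries, at 48.1 to 125 RPKM against 126 to 183 RPKM, with an adjusted p of 0.0815.

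**Figure D4:**
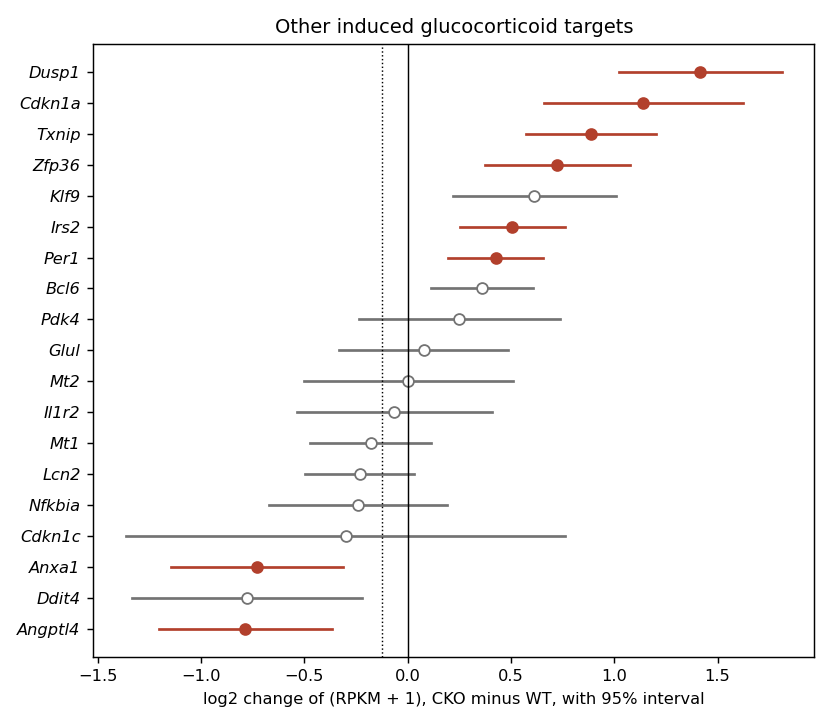
Log2 change of RPKM + 1, CKO minus WT (horizontal axis), with its 95% interval from limma, for the 19 tested genes of the list of other induced glucocorticoid targets. Filled red circles passed the threshold, open grey circles did not, the solid vertical line is 0 and the dotted line is the median of all tested genes (-0.12). The 6 that rose run from Dusp1 (1.42) to Per1 (0.43), and the 2 that fell are Angptl4 (-0.78) and Anxa1 (-0.73).

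In the duct, islet and endothelial lists 1 marker each passed, while 0 passed in the acinar, adipocyte, fibroblast, smooth muscle and mast cell lists. Over all tested genes 1.42% passed higher and 5.74% lower in CKO, and 16.2% had CKO below WT with no overlap. The sum of the 6 duct markers was 276 to 524 RPKM in CKO and 544 to 609 RPKM in WT, with no overlap, and 1 of the 5 tested (Sox9) fell. For the 6 islet markers the sum was 1290 to 2032 RPKM in CKO and 846 to 1631 RPKM in WT, and 1 of 6 (Gcg) rose. For the 5 endothelial markers it was 15.9 to 20.1 RPKM in CKO and 16.6 to 24.9 RPKM in WT, and 1 of the 4 tested (Kdr) fell. Their part in the levels of the induced targets was not tested.

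Several of these genes also respond to growth factors and stress, so early genes of those pathways were counted beside them. Of 12 immediate early genes 11 were tested, 5 rose (Egr1, Ier2, Myc, Junb and Atf3) and 0 fell, a share of 45.5% against 7.17% of all tested genes, with a median log2 change of 0.71. This list was likewise chosen with earlier results known, so its share is a description too. Jun, of the same list and named outside the rule, lay the other way, at 10.5 to 18.6 RPKM in CKO and 18.6 to 26.2 RPKM in WT, just without overlap (log2 change -0.48, adjusted p = 0.102). Egr1 was at 40.3 to 46.0 RPKM in CKO and at 8.30 to 9.57 RPKM in WT, and Myc rose from 9.54 ± 1.87 to 19.8 ± 4.16 RPKM (adjusted p = 0.00808). The part of the signals behind these early genes in the levels of the glucocorticoid targets was not tested.

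Of 22 inflammatory genes that glucocorticoids hold down, 11 were tested and 0 passed in either direction, with a median log2 change of -0.32. The monocyte chemokine Ccl2 was at 19.9 ± 9.14 against 29.9 ± 6.53 RPKM (adjusted p = 0.22). The neutrophil chemokine Cxcl1 was at 2.68 ± 1.92 against 0.971 ± 0.422 RPKM (adjusted p = 0.217), and the matrix protease Mmp9 was at 0.973 ± 0.358 against 1.52 ± 0.686 RPKM (adjusted p = 0.266). The cytokine genes Tnf, at 0.697 RPKM or less, and Il6, at 1.10 RPKM or less, were too low to enter the test. So were Ptgs2 (0.463 to 0.625 RPKM in CKO, 0.154 to 0.373 RPKM in WT) and Nos2 (0.0817 to 0.265 RPKM in CKO, 0 to 0.0362 RPKM in WT). For both, named outside the rule, every CKO library lay above every WT library. Among tested genes 2.46% did so, and no such share was computed for genes below the filter. With a filter at 0.1 RPKM Ptgs2 did not pass in limma (log2 change 0.27, adjusted p = 0.0664), and Nos2 did not enter that fit. The other genes of the list below the filter overlapped between the groups.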

How the data were processed

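The authors deposited 1 table of 16888 genes with 8 named value columns, 1 per sample, and no unit in its header. The deposited values are RPKM, as read from the numbers: 16057 of 16068 genes above 0 in at least 2 libraries (99.93%), all 9 members among them, gave whole reads (within 0.05) at 1 gene length and 1 total per library. A further 1 unnamed column with values was not used. The build is mm10 per the submitters' processing notes; the aligner, counter and annotation: not given in the sources used here. Gene overlaps are from GENCODE M21.

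limma 3.58.1 (R 4.3.3) was run on log2(RPKM + 1) of the 8513 genes with at least 1 RPKM in 4 libraries, with group as the term, a mean trend, robust variances and Benjamini-Hochberg adjustment over all of them. Alternatives were a pseudocount of 0.1, no filter, a filter at 0.1 RPKM, no trend, limma-voom on recovered reads, a block for the replicate number, 2 scalings and leaving out each library. The members and lists were chosen with earlier results of these data known. The rule named all members, the 3 tested genes with the smallest unadjusted p in each list (all of a list of 4), and the 3 genes most like Nr3c1. The fit was checked on simulated data. Other software was Matplotlib 3.10.9, pandas 2.3.3, SciPy 1.17.1, NumPy 2.4.6 and Python 3.11.15.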

Additional observations from a re-analysis of the deposited data

Results flagged for a closer look

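In each group of 4, a library was looked at again when its gap to its neighbour took more of the group's range than Dixon's critical value for 95% allows, which chance passes in about 1 of 20 groups. Over 51 genes in both groups, 102 groups in all, this gave 4 values, no more than chance gives at that rate. Errfi1 in WT1 was at 28.6 RPKM, while the other WT libraries lay between 13.4 and 14.9 RPKM. Ppid in CKO4 was at 2.71 RPKM, while the other CKO libraries lay between 3.14 and 3.17 RPKM. Hsd11b2 was at 0.238 RPKM in CKO3 and 0.219 RPKM in WT2, while the other libraries of each group lay at 0.0316 RPKM or less in CKO and 0.051 RPKM or less in WT.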

How the results depend on the processing

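Of the 9 members 0 passed in the reported fit, and 1 (Cebpb) passed with median centring, with totals without the acinar enzymes and without CKO1, so that leaving out a library gave 0 to 1. The 610 genes past the threshold ranged from 223 (without WT1) to 705 (without CKO1) when a library was left out. They numbered 235 without CKO2, 279 without CKO4, 271 without WT2, 326 without WT3 and 280 without WT4. Median centring gave 572, of which 305 were higher in place of 121, and totals without the acinar enzymes gave 676, of which 221 were higher. Median centring moved the median of all tested genes from -0.12 to -0.02.

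Among 48 named genes with a fit, 633 of 723 alternative values kept their sign and their side of the threshold, 43 lost a call, 10 gained one and 37 changed sign. The sign changes were of log2 changes near 0. With median centring Nr3c1 was at 0.069, Gsk3b at 0.060, Egfr at 0.073, Erbb2 at 0.036 and Hsp90ab1 at 0.018. With totals without the acinar enzymes Nr3c1 was at 0.0056, Gsk3b at 0.0052 and Egfr at 0.029. Sgk1 was at -0.0073 with limma-voom and -0.0036 with a pseudocount of 0.1. When a library was left out, the log2 change ran from -0.15 to 0.079 for Nr3c1, -0.095 to 0.11 for Fkbp5, -0.079 to 0.099 for Sgk1, -0.059 to 0.34 for Errfi1, -0.12 to 0.19 for Cebpd, -0.21 to 0.0025 for Foxo3, -0.078 to 0.21 for Ndrg1, -0.14 to 0.013 for Gsk3b, -0.17 to 0.24 for Egfr, -0.15 to 0.024 for Erbb2, -0.15 to 0.017 for Hsp90ab1 and -0.18 to 0.17 for Mt2. The cause was not tested.

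The groups share replicate numbers, and the labels do not say whether these pair the libraries. Same-numbered libraries did not deviate together over all tested genes (correlations of -0.123, -0.315, 0.142 and 0.033). Such values cannot exclude a pairing with a small effect or one confined to some genes. With the replicate number as a block 548 genes passed, and 0 members. Klf9 and Ddit4 then passed (adjusted p = 0.0399 and 0.0335 in limma), and Ppid and Per1 did not. Depth limits Hsd11b1 most, with 47 to 104 reads a library.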
